A study of Mus musculus with 41 samples.

Results

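The epidermal differentiation complex (EDC) is the cluster of genes on mouse chromosome 3 from which keratinocytes build the cornified envelope, the cross-linked protein shell of the dead outer layers of the skin. Its products differ by role. Loricrin (Lor) and involucrin (Ivl) are major envelope proteins, small proline-rich proteins (Sprr) bridge other envelope proteins, and late cornified envelope proteins (Lce) are laid down as the envelope matures. Fused S100 proteins such as filaggrin (Flg), repetin (Rptn), trichohyalin (Tchh) and cornulin (Crnn) organise keratin filaments or join the envelope, while the S100a genes at both ends of the cluster encode small calcium-binding proteins. Most envelope genes are low in basal stem cells and switch on as cells leave the basal layer. The members studied here were the 62 protein-coding genes with such symbols within chr3:90400000-93700000 of the mm10 assembly, out of 82 protein-coding genes in that interval and 21938 in the genome. They comprised 12 proximal S100a genes (S100a1 to S100a9), 15 Sprr genes, 21 Lce genes, 7 fused S100 genes, 2 distal S100a genes (S100a11 and S100a10) and 5 others (Lor, Ivl, Lelp1, Crct1 and Smcp). The interval spans 3.3 Mb, or 0.121% of the genome.

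The data were CUT&RUN (CNR) profiles, in which an antibody guides a nuclease to the chromatin that carries its target and the released fragments are sequenced. SOX9 is a transcription factor of hair follicle stem cells that epidermal stem cells (EpdSCs) normally lack, and MLL3/4 are the methyltransferases that place monomethylation on histone H3 lysine 4 at enhancers. In skin, male CD1 mice carried K14rtTA and TRE-myc-Sox9, so that doxycycline (DOX) induced MYC-tagged SOX9 through the Krt14 promoter in basal keratinocytes, and EpdSCs were sorted without DOX at postnatal day 21 (D0) and after 1, 2 and 6 weeks of DOX (W1, W2 and W6, at postnatal days 28, 35 and 63). The W12 cells came from skin grafted onto immunocompromised hosts, so that graft and time cannot be told apart. All skin groups carried both transgenes, D0 included, and mouse age rose with the time on DOX, so age and SOX9 cannot be told apart. In culture, keratinocytes carrying K14rtTA were given a TRE-driven MYC-tagged protein and DOX. It was full-length SOX9 (WT-SOX9), a form lacking the transactivation domain (dTA-SOX9, labelled noTA) or one lacking the HMG domain that binds DNA (dHMG-SOX9, labelled noHMG). The control without DOX was the WT-SOX9 line alone. SOX9 was profiled at all 5 skin times, MLL3/4 at D0, W1 and W2 and in the 4 culture groups, and the MYC-tag in the 4 culture groups.

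Each of these 16 groups was deposited as 1 list of peaks called on its 2 replicates combined, so no difference between groups could be tested. For MLL3/4 under WT-SOX9, 1 label field gives replicate number 2 to both samples while the titles give 1 and 2, and the titles were used. Shares are given instead with Wilson 95% intervals over peaks, which cover counting error only and treat neighbouring peaks as independent. A peak counted as lost when no peak of the later or treated list overlapped it by at least 1 bp, and as gained in the opposite case. The SOX9 and MYC-tag maxima are in RPKM, and their steps corresponded to 13100000 to 32500000 fragments in the SOX9 lists and 4040000 to 6090000 in the MYC-tag lists, if the signal was computed base by base. The weakest listed peak therefore held 24 to 59 fragments at its maximum in the SOX9 lists and 8 to 11 in the MYC-tag lists. The pooled MLL3/4 lists held whole-number signal with no scaling, so their heights were not compared between groups. A list of replicate 1 alone existed for the control without DOX. Of its 128 EDC MLL3/4 peaks, 24 (18.8%, 95% interval 12.9 to 26.4, whole list 19.2%) had no counterpart in the pooled list. For the MYC-tag, the pooled list held maxima above 1800 RPKM and the list of replicate 1 went lower. Of its 7 EDC peaks above that value, 1 was missing from the pooled list (14.3%, 2.57 to 51.3, whole list 28.6%).

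The sites below carry the main observations and are shown before their values. Each sequence is 101 bases around the centre of the strongest part of the peak, read 5′ to 3′ on the plus strand from the RefSeq assembly GRCm38 (mm10), and all 7 lay between genes. Capitals mark short words matched on either strand. For SOX factors the word was CCATTGT, the variant CCTTTGT, the variant GCATTGT or the variant GCTTTGT. It was TGACTCA for AP1, AGATAAG or the variant AGATAAC for GATA factors, AACCACA for RUNX, GGGTGTG for KLF and AACCGGT for GRHL factors, together with the TP63 consensus. A match describes the letters only. The sites were the highest-ranked SOX9 peak absent at D0 (chr3:93507296-93507396, nearest to S100a11), the highest-ranked MLL3/4 peaks lost at W1 (chr3:92855876-92855976, Lce1l), gained at W1 (chr3:93579507-93579607, S100a10) and present at all skin times (chr3:92169931-92170031, Lelp1), those lost (chr3:93506316-93506416, S100a11) and gained (chr3:92456069-92456169, Sprr3) with WT-SOX9 in culture, and the highest-ranked MYC-tag peak of dTA-SOX9 (chr3:93537118-93537218, S100a11).
SOX9 peak upstream of S100a11: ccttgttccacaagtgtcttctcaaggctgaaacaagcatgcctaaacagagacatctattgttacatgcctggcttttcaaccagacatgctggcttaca
MLL3/4 lost at W1 near Lce1l: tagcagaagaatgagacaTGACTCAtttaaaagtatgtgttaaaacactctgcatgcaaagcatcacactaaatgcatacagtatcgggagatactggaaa
MLL3/4 gained at W1 near S100a10: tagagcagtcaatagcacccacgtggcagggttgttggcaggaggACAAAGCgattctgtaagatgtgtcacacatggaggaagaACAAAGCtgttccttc
MLL3/4 at all skin times near Lelp1: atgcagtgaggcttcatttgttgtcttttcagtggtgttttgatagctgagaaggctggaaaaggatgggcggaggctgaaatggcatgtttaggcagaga
MLL3/4 lost with WT-SOX9 upstream of S100a11: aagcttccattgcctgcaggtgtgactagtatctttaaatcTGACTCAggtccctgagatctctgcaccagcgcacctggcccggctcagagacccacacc
MLL3/4 gained with WT-SOX9 near Sprr3: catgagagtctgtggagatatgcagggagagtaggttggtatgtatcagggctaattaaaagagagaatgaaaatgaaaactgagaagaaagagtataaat
MYC-tag of dTA-SOX9 near S100a11: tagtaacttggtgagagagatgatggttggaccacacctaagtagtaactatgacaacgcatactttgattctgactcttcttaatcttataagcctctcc
The gained site near S100a10 held the SOX word ACAAAGC, which reads GCTTTGT on the other strand, at positions 46 and 86. The AP1 word TGACTCA stood in the lost site near Lce1l at position 19 and in the site upstream of S100a11 that was lost with WT-SOX9, at position 42. None of the words was found in the other 4 windows.

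In EpdSCs before induction, MLL3/4 marked the ends of the EDC more densely than its centre. At D0 the interval held 99 of 37072 MLL3/4 peaks (0.267% of the list), of which 31 were nearest to proximal S100a genes and 24 to S100a10 or S100a11. The 21 Lce genes were nearest to 7 and the 15 Sprr genes to 9. S100a10, which encodes the annexin A2 partner p11, was nearest to the most (14), followed by S100a11 (10), S100a3 (8), Crnn (7) and S100a1 (6). Peaks were assigned to the nearest member even where a gene outside the family was closer, which was so for all 6 of S100a1, 2 of the 7 of Crnn and 10 of the 31 at proximal S100a genes. A peak lay in the gene or within 10 kb of it for 23 of the 62 members (37.1%, 26.2 to 49.5), against 54.1% of all protein-coding genes. The share of members was 24.2% within 2 kb and 72.6% within 50 kb. By group these were 9 of 12 proximal S100a genes, both distal ones, 5 of 15 Sprr genes, 3 of 21 Lce genes, 2 of 7 fused S100 genes and 2 of the 5 others. The gap between S100a9 and Lor held 8 MLL3/4 peaks at D0, the most of any list.

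**Figure D1:**
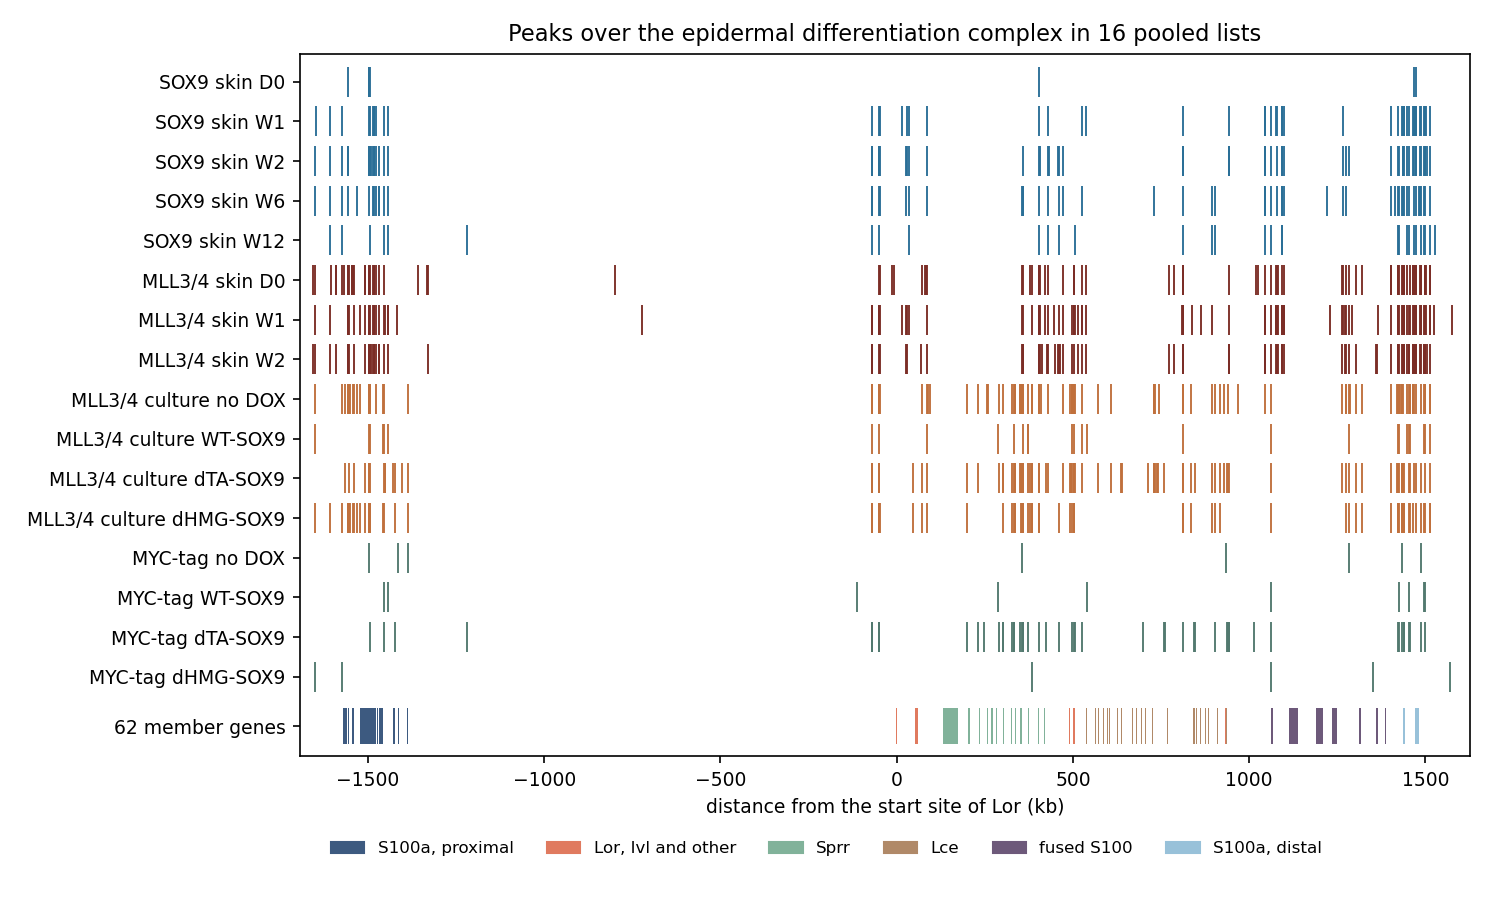
Peaks of the 16 pooled lists over the interval, each drawn as a line at its centre against distance from the start site of Lor in kb, with the 62 members as coloured boxes in the lowest row. The stretch of the Sprr2 genes is bare in the skin lists. Around the Sprr2 and Lce genes the fullest lists are MLL3/4 without DOX and MLL3/4 and the MYC-tag with dTA-SOX9. Among the culture lists of MLL3/4, WT-SOX9 with DOX had the fewest peaks (29).

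During induction in skin the EDC did not lose MLL3/4 peaks in number. It held 99 peaks at D0, 109 at W1 and 100 at W2, while the whole lists shrank from 37072 to 31539 and 29281. The positions turned over all the same. At W1, 34 of the 99 D0 peaks were lost (34.3%, 25.7 to 44.1), an interval that did not reach the 48.5% of the whole list, and 44 of 109 W1 peaks were gained (40.4%, 31.6 to 49.8, whole list 39.7%). At W2, 29 of 99 were lost (29.3%, 21.2 to 38.9, whole list 48.7%) and 34 of 100 were gained (34%, 25.5 to 43.7, whole list 35.7%). Both comparisons share the D0 list. Of the 44 peaks gained at W1, 23 were found again at W2 (52.3%, 37.9 to 66.2), against 38.7% over the list. The peaks that went were weaker ones: the lost D0 peaks had a median percentile of total signal within their list of 28.3 at W1 and 29.2 at W2, and the kept ones 77.3 and 76.6.

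At W1 losses and gains fell on all blocks of the complex, although at W2 none of the 7 Lce peaks was lost. The proximal S100a genes lost 17 of 31 peaks at W1 and gained 9, and their total went from 31 at D0 to 24 at W1 and 23 at W2. Of those 17 losses, 9 had another gene as the nearest, and the peaks with a proximal S100a gene as the nearest of all genes were 21, 21 and 18 from D0 to W2. S100a10 and S100a11 lost 2 of 24 and gained 8. The fused S100 genes lost 5 of 17 and gained 8, and the group of Lor, Ivl, Lelp1, Crct1 and Smcp lost 6 of 11 and gained 12, of which 8 were nearer to another gene. Sprr genes lost 2 of 9 and gained 2, and Lce genes lost 2 of 7 and gained 5. By member, 12 had more MLL3/4 peaks within reach at W1 than at D0, 8 had fewer and 42 were equal, and at W2 the counts were 14, 7 and 41. More peaks at W1 were thus found for 19.4% of members and 12.6% of all genes, and fewer for 12.9% of members and 33.7% of all genes. At W2 the shares with more were 22.6% and 11.2% and those with fewer 11.3% and 34.3%. Of the 23 members that had a D0 peak within reach, 34.8% had fewer at W1 (all such genes 62.3%) and 30.4% at W2 (63.3%). A peak was within reach of 26 members at W1 (41.9%, all genes 45.8%) and of 23 at W2 (37.1%, all genes 44.2%). With the stronger 50% of each list the share of members was 29% at D0, 25.8% at W1 and 30.6% at W2, so the order of the times depended on the threshold.

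Among single members, S100a14, a calcium-binding protein of epithelial cells, went from 7 MLL3/4 peaks within reach at D0 to 3 at W1 and 4 at W2, and its neighbour S100a16 from 6 to 2 and 3. S100a3, a hair cuticle protein, had 9, 11 and 9, and since its annotated span covers S100a2, 6, 8 and 7 of these peaks were also within reach of S100a2. S100a4 had 5, 5 and 6 and S100a6 had 3, 4 and 4. Lor, a major envelope protein, had 2 peaks at D0 (chr3:92069837-92070301 and chr3:92076565-92076855) and none at W1, at W2 or in any culture list. Ivl had none at D0 and 1 at each of W1 and W2. Flg, which bundles keratin filaments, had no MLL3/4 peak within reach in any of the 7 lists. The lost site near Lce1l shown above (chr3:92855669-92856156, 4383 bp from the gene) was present again at W2, whereas the highest-ranked peak lost at both times, chr3:92164504-92164968 near Lelp1, occurred in the D0 list alone among the 16. The kept site near Lelp1 (chr3:92169396-92170262) had the highest total signal of the interval at D0 and was present in all 7 MLL3/4 lists.

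**Figure D2:**
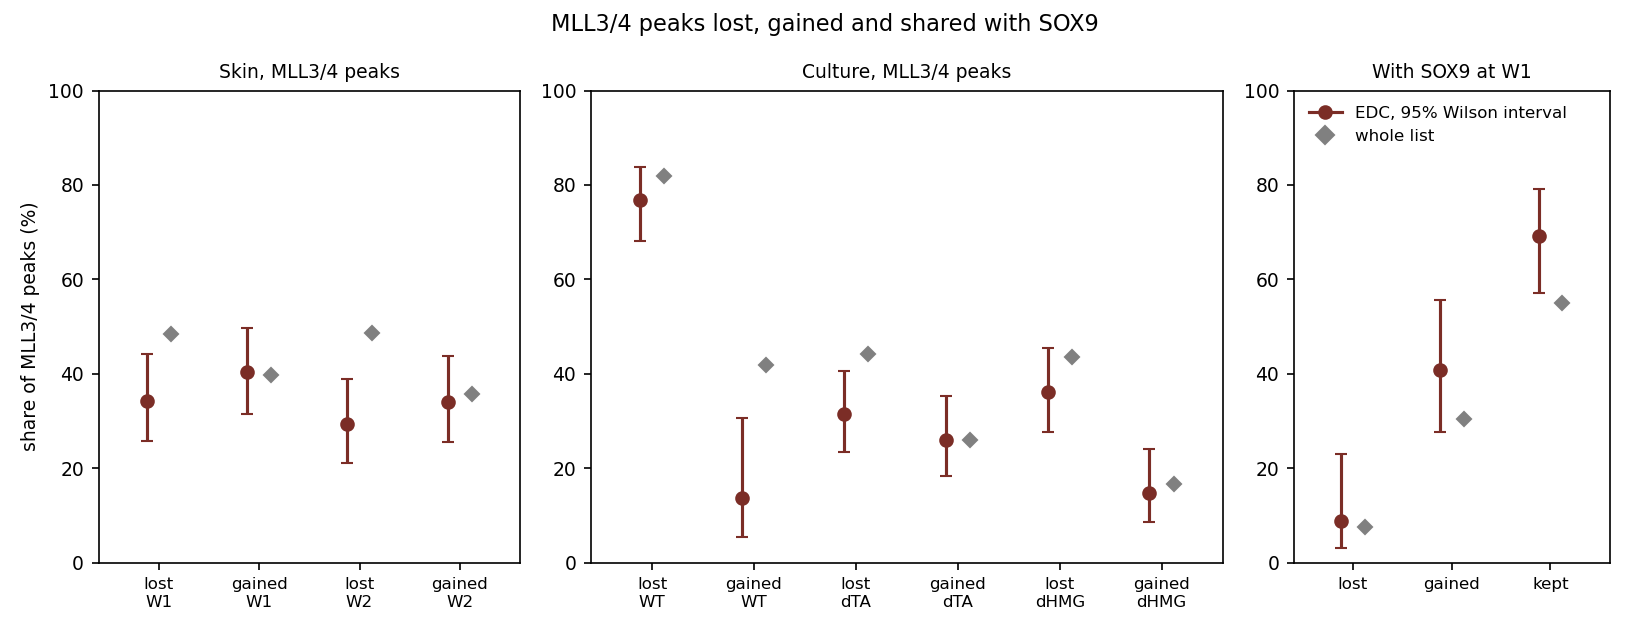
Share of MLL3/4 peaks (%) lost, gained or shared with SOX9, for the EDC (circles with 95% Wilson intervals) and for the whole list (diamonds). In skin the EDC circles for loss lie below the diamonds, and in culture WT-SOX9 has the highest loss both in the EDC (76.9%) and over the whole list (82.0%).

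SOX9 peaks in the EDC, as in the whole list, were more numerous from W1 on than at D0. At D0 the interval held 7 SOX9 peaks, all of them on a D0 MLL3/4 peak (97.2% over the list), and it then held 53 (W1), 67 (W2), 59 (W6) and 31 (W12). These were 0.339, 0.359, 0.287 and 0.318% of lists of 15651, 18657, 20579 and 9745 peaks, close to one another, and the 7 at D0 were 0.884% of only 792. From W1 on, the highest numbers sat at the distal S100a genes. S100a10 and S100a11 were nearest to 2, 19, 19, 15 and 11 peaks from D0 to W12 and the proximal S100a genes to 4, 11, 16, 13 and 6. Without peaks nearer to another gene, the proximal S100a genes had 4, 8, 13, 10 and 3, below the fused S100 genes at W1, W6 and W12. The fused S100 genes had 0, 10, 11, 12 and 4 and the group of Lor, Ivl, Lelp1, Crct1 and Smcp 0, 7, 12, 9 and 5, or 0, 2, 2, 2 and 1 without peaks nearer to another gene. Few SOX9 peaks were nearest to the 15 Sprr genes (1, 2, 5, 5 and 2) or the 21 Lce genes (0, 4, 4, 5 and 3). SOX9 was within reach of 6 members at D0 (9.68%, all genes 2.66%), 13 at W1 (21%, all genes 31.5%), 17 at W2 (27.4%, all genes 37.2%), 19 at W6 (30.6%, all genes 37.2%) and 11 at W12 (17.7%, all genes 20.6%). Without peaks whose nearest protein-coding gene was another gene, the 5 counts were 7, 43, 52, 47 and 22, and above a maximum of 3600 RPKM they were 0, 17, 27, 26 and 4. The order of W1, W2 and W6 depended on list length, since lists cut to 9745 peaks held 39, 39 and 36.

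Over the 5 times 22 members had SOX9 within reach (35.5%, 24.7 to 47.9, all genes 46.5%), and 18 of them also had skin MLL3/4 (81.8%, 61.5 to 92.7, all such genes 94.7%). They were 9 proximal S100a genes (S100a1, S100a13, S100a14, S100a16, S100a3, S100a2, S100a4, S100a5 and S100a6), both distal S100a genes, Sprr1a, Sprr1b and Sprr2k, the Lce genes Lce6a, Lce1k, Lce3f and Lce1m, Crct1 and Smcp, and the fused S100 genes Crnn and Flg. Flg entered the count through a single W6 peak 9810 bp away. Lor and Ivl had none within reach at any time. S100a10 had 2, 7, 6, 5 and 3 peaks within reach from D0 to W12 and S100a3 had 3, 6, 8, 5 and 1. S100a11 and S100a4 had none at D0 and then 5, 4, 4 and 1 and 4, 5, 5 and 0. The remaining ones had at most 7 at any time.

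**Figure D3:**
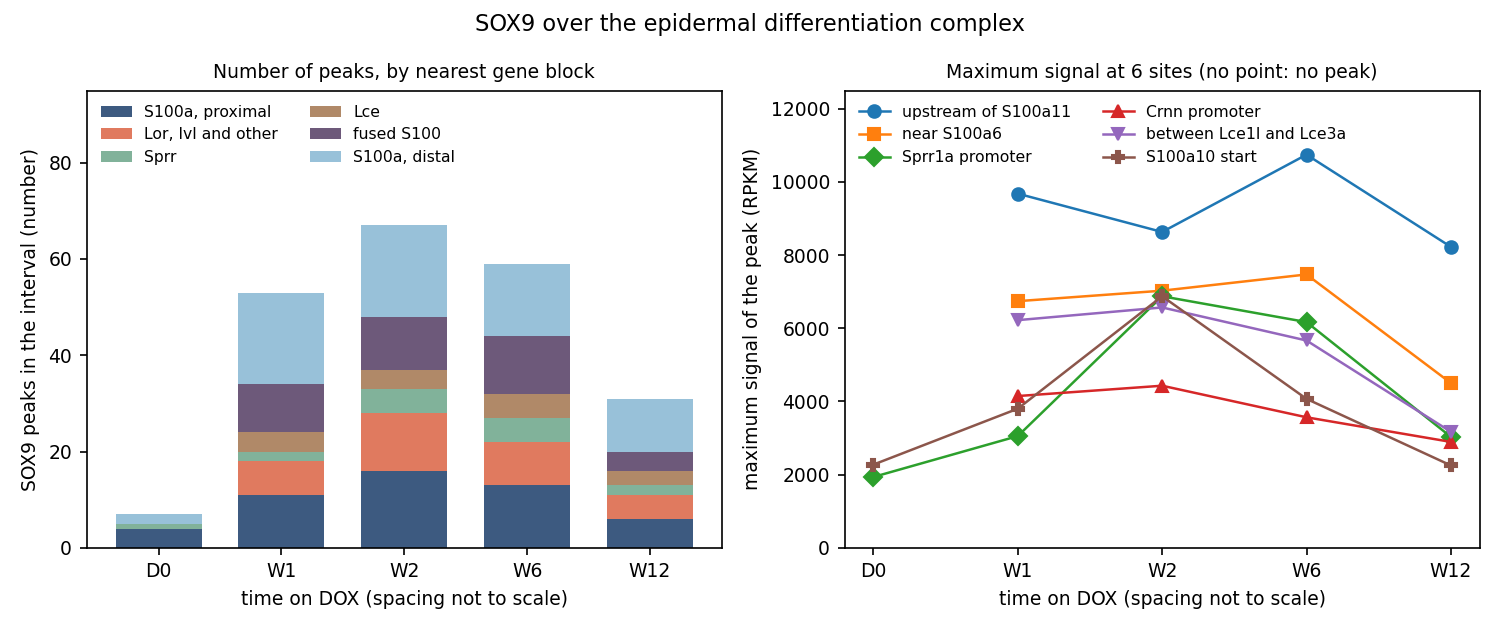
Left, number of SOX9 peaks in the interval at each time on DOX, stacked by the gene block of the nearest member. Right, maximum signal (RPKM) of the SOX9 peak at 6 sites over time, with no point where no peak was listed. The site upstream of S100a11 had no D0 peak and stood at 8227 RPKM or more from W1 to W12, while the Sprr1a promoter was listed at all 5 times.

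The strongest SOX9 sites followed different courses. The site upstream of S100a11 (chr3:93505967-93507905, 12583 bp from the gene) had no peak at D0, and its maximum was 9681, 8633, 10746 and 8227 RPKM from W1 to W12. A site near S100a6 (chr3:90638417-90639377 at W1) also lacked SOX9 and MLL3/4 at D0 and then read 6742, 7029, 7472 and 4504 RPKM. A site between Lce1l and Lce3a (chr3:92893920-92895718) read 6223, 6570, 5667 and 3171 RPKM from W1 to W12. At these 3 intergenic sites SOX9 was listed at every time after induction and not before it, and of the 3 the S100a11 and Lce sites already had MLL3/4 at D0. At promoters (within 1 kb of a start site), Sprr1a was listed at all 5 times, with 1937, 3054, 6876, 6171 and 3033 RPKM from D0 to W12. Crnn was not listed at D0 and read 4149, 4431, 3568 and 2895 RPKM. The peak at the S100a10 start read 2275, 3803, 6876, 4072 and 2252 RPKM from D0 to W12. RPKM values of single pooled lists carry no replicate error, so the order of these times was not tested. The stretches upstream of the Sprr1a, Crnn and Lor starts are printed here on the strand of the gene, from the RefSeq promoter table on GRCm38 up to the first exon (chr3:92485896-92486081, chr3:93144589-93144786 and chr3:92083143-92083342), because the first 2 held SOX9 and MLL3/4 peaks and the Lor one held neither.
Promoter of Sprr1a: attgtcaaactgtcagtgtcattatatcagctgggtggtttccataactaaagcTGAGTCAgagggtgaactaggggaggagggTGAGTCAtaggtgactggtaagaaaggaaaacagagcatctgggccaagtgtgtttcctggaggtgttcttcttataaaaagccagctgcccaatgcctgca
Promoter of Crnn: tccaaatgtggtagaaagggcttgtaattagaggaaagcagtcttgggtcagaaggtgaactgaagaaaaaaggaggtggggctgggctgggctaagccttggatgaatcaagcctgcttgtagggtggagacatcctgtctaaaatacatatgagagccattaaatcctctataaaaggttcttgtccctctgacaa
Promoter of Lor: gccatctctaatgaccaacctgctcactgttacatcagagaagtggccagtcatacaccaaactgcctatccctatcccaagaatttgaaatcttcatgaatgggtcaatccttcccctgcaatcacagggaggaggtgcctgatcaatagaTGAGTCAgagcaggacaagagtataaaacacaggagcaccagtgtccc
The AP1 word, here as TGAGTCA, stood at positions 55 and 85 of the Sprr1a stretch and at position 153 of the Lor stretch. None of the words occurred in the Crnn stretch. Of the 62 members, 56 had an entry in the promoter table of 300 bases (250 before to 50 after the start), and 11 of them (19.6%) held the AP1 word, against 5.17% of 27025 promoters. The 11 were Ivl, Lor, S100a11, Sprr1a and 7 Sprr2 genes, and the Sprr2 genes are near copies of one another. The SOX words were in 14.3% against 16.4%, the GATA words in 8.93% against 4.86%, the RUNX word in 3.57% against 5.37% and the KLF word in 3.57% against 7.85%, and neither the GRHL word (0.999% of all) nor the TP63 consensus (0.0222%) was in any.

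Merged over W1 to W12, SOX9 occupied 77 regions of the interval, and 24 of them (31.2%) were in all 4 lists, against 17.9% of regions genome-wide. A further 22 (28.6%) were in 1 of the 4, against 36%. By first appearance, 5 regions dated from D0, 47 from W1, 12 from W2, 10 from W6 and 3 from W12. Of the 53 W1 peaks, 46 were found again at W2 (86.8%, whole list 77.7%) and 24 at W12 (45.3%, 32.7 to 58.5, whole list 35.8%), and 28 of the 59 W6 peaks met a W12 peak (47.5%, whole list 39.7%). The W12 list was the shortest after induction, and 85.0% of all its peaks were present at W6.

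SOX9 sites and MLL3/4 sites overlapped heavily in the EDC. Of the 53 W1 SOX9 peaks, 40 lay on MLL3/4 that was present at D0 (75.5%, 62.4 to 85.1, whole list 67.7%), and 52 lay on W1 MLL3/4 (98.1%, 90.1 to 99.7, whole list 82.0%). At W2 65 of 67 lay on W2 MLL3/4 (97%, 89.8 to 99.2, whole list 78.7%). The 13 W1 SOX9 peaks that had no D0 MLL3/4 all had W1 MLL3/4 (100%, 77.2 to 100), against 63.5% over the list. For W12 SOX9 peaks, D0 MLL3/4 had been under 18 of 31 (58.1%), against 40.7%. By the time SOX9 first appeared, D0 MLL3/4 was under all 5 of the D0 regions, 34 of the 47 first seen at W1, 5 of 12 at W2, 2 of 10 at W6 and 0 of 3 at W12. Shares by first appearance were not computed over the genome. In the whole SOX9 lists the share of peaks on D0 MLL3/4 also fell, with 97.2, 67.7, 66.3, 52.8 and 40.7% from D0 to W12.

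Seen from MLL3/4, SOX9 was on a smaller share of the lost peaks than of the gained or kept ones, a difference that was not tested. Lost peaks were here those of the D0 list, and kept peaks those of the W1 or W2 list that overlapped a D0 peak. Of the 34 MLL3/4 peaks lost at W1, 3 (8.82%, 3.05 to 23) overlapped a W1 SOX9 peak, against 18 of the 44 gained (40.9%, 27.7 to 55.6) and 45 of the 65 kept (69.2%, 57.2 to 79.1). Over the whole lists these shares were 7.58, 30.5 and 55.0%, in the same order. With the stronger 50% of each MLL3/4 list and the full SOX9 list, they read 21.4% (3 of 14) of the lost, 67.9% of the gained and 87.8% of the kept EDC peaks. A peak lost at this setting may only be weaker at W1, and the whole-list shares were not computed for it. At W2, SOX9 was on 1 of 29 lost (3.45%, whole list 9.06%), 19 of 34 gained (55.9%, 39.5 to 71.1, whole list 38.5%) and 44 of 66 kept (66.7%, whole list 58.4%). The gained site near S100a10 shown above (chr3:93579024-93579785, 14381 bp from the gene) had a SOX9 peak of 4898 RPKM at W1. SOX9 was listed there at every later time, MLL3/4 was there again at W2, and WT-SOX9 had a MYC-tag peak of 2955 RPKM there in culture. In culture MLL3/4 was already at this site without DOX. It was also there with WT-SOX9 and with dHMG-SOX9, but not with dTA-SOX9.

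Cultured keratinocytes without DOX and sorted EpdSCs shared part of their EDC MLL3/4 peaks. The interval held 108 MLL3/4 peaks in culture and 99 in skin, and 53 of the 108 (49.1%, whole list 44.6%) overlapped a D0 skin peak, as did 50 of the 99 (50.5%, whole list 40.4%) in the other direction. The Sprr genes were nearest to 24 peaks in culture and 9 in skin, the Lce genes to 15 and 7, and the proximal S100a genes to 20 and 31. MLL3/4 was within reach of 36 members in culture (58.1%, all genes 49.7%). Of the 216 merged regions of all lists, 66 had MLL3/4 in culture lists without any skin list (30.6%, all regions 29.3%), 71 the reverse (32.9%, all regions 36.9%), and 10 had it in all 7 (4.63%, all regions 3.26%). By member, 17 had MLL3/4 within reach in culture lists alone (27.4%, 17.9 to 39.6, all genes 8.01%). Lor, Lce3c, Hrnr and Tchh had it in skin lists alone (6.45%, 2.54 to 15.4, all genes 12.6%).

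With WT-SOX9 and DOX, most EDC MLL3/4 peaks of the cultured cells were missing, from a list that was short everywhere. The interval went from 108 peaks to 29, with 10543 peaks in the whole list against 33975 without DOX. Of the 108, 83 were lost (76.9%, 68.1 to 83.8, whole list 82.0%), and 4 of the 29 were gained (13.8%, 5.5 to 30.6, whole list 41.8%). With lists of equal size, 57.1% were lost (whole list 58.3%) and 37.9% gained (whole list 57.6%). Every block lost peaks: 21 of 24 at Sprr genes, 13 of 15 at Lce genes, 15 of 20 at proximal S100a genes, 8 of 10 at fused S100 genes, 14 of 22 at S100a10 and S100a11, and 12 of 17 at the others. By member, 34 had fewer MLL3/4 peaks within reach, 1 (Lce6a, from 0 to 2) had more and 27 were equal. Fewer peaks were found for 54.8% of members and 43.9% of all genes, and more for 1.61% and 3.62%. Of the 36 members with a peak within reach without DOX, 94.4% had fewer, against 88.3% of all such genes. With WT-SOX9, MLL3/4 was within reach of 14 members (22.6%, all genes 22.3%), 13 of which had it without DOX.

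Both truncated proteins left more EDC peaks in place than WT-SOX9. With dTA-SOX9 the interval held 100 peaks, 34 of the 108 were lost (31.5%, 23.5 to 40.7, whole list 44.3%), and 26 of 100 were gained (26%, 18.4 to 35.4, whole list 26.1%). With dHMG-SOX9 it held 81, with 39 lost (36.1%, 27.7 to 45.5, whole list 43.5%) and 12 of 81 gained (14.8%, 8.68 to 24.1, whole list 16.7%). With lists of equal size the losses were 23.3% for dTA-SOX9 (whole list 34.5%) and 23.8% for dHMG-SOX9 (whole list 28.9%), and without replicate 2 of the control the gain for dHMG-SOX9 was 8.64%. All 3 comparisons share the list without DOX. Both lists were also longer than that of WT-SOX9, at 25948 and 23301 peaks. With dTA-SOX9 14 members had more peaks within reach, 14 fewer and 34 were equal, where 9.33% of all genes had more and 29.5% fewer, against 22.6% of members each way. Of the 36 members with a control peak 38.9% had fewer with dTA-SOX9 (all such genes 59.4%) and 61.1% with dHMG-SOX9 (55.4%). MLL3/4 was within reach of 41 members (66.1%, 53.7 to 76.7, all genes 42.2%). With dHMG-SOX9 the counts were 4, 22 and 36 (6.45% with more and 35.5% with fewer, against 7.89% and 27.6% of all genes), and 27 members had MLL3/4 (43.5%, all genes 42.7%).

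The truncated proteins gave their own counts along the complex, and the differences between them were not tested. Lce genes were nearest to 15 peaks in the control, 23 under dTA-SOX9 and 6 under dHMG-SOX9, while the proximal S100a genes had 20, 15 and 21. S100a14 had 5 peaks within reach in the control, none under WT-SOX9, 2 under dTA-SOX9 and 4 under dHMG-SOX9. Sprr1a, a bridging protein of the envelope, had 4, 0, 2 and 2, and Ivl had 3, 1, 3 and 2. The Ivl promoter itself carried MLL3/4 without DOX and with dTA-SOX9, and not with the other constructs. The Crnn promoter carried MLL3/4 in all 7 lists, skin and culture. At the site upstream of S100a11, the peak chr3:93506167-93506786 without DOX had no counterpart with WT-SOX9, while the adjacent peak chr3:93506876-93507482 did (chr3:93506905-93507483). The highest-ranked of the 4 gained peaks, chr3:92455790-92456459, lay 43 bp from Sprr3, and no other list had a peak there.

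The stretch of the Sprr2 genes held MLL3/4 peaks in culture lists and none in skin lists. These 11 genes, between chr3:92215799 and chr3:92433925, encode near-identical small proline-rich proteins, so reads from 1 copy may be placed on another, and calls at single genes are uncertain. Within this stretch no skin list, SOX9 or MLL3/4, had a peak. Just outside it, skin MLL3/4 peaks lay within 10 kb of Sprr2k (2 at D0, 2 at W1 and 3 at W2), while Sprr2a1, Sprr2a2 and Sprr2e had no peak within reach in culture either. In culture MLL3/4 had 12 peaks without DOX, against 2 (WT-SOX9), 10 (dTA-SOX9) and 6 (dHMG-SOX9) with it. Of the 12, 1 was found again under WT-SOX9, 8 under dTA-SOX9 and 6 under dHMG-SOX9. Over the whole control list, 82.0, 44.3 and 43.5% of peaks were lost with these constructs, in the same order. The MYC-tag had 0 peaks there in the control, 1 for WT-SOX9, 10 for dTA-SOX9 and 0 for dHMG-SOX9. Of the 10, 7 lay on MLL3/4 that was present without DOX (68.3% over the whole dTA-SOX9 list).

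The MYC-tag peaks of the constructs were few for WT-SOX9 and many for dTA-SOX9. The interval held 8 MYC-tag peaks in the control (0.357% of 2242), 10 for WT-SOX9 (0.15% of 6671), 51 for dTA-SOX9 (0.45% of 11341) and 6 for dHMG-SOX9 (0.151% of 3980). The tag was within reach of 10, 4, 30 and 5 members (16.1, 6.45, 48.4 and 8.06%), against 9.65, 16.5, 21.2 and 14.7% of all genes. The 51 peaks of dTA-SOX9 fell on 16 Sprr, 12 Lce, 9 distal S100a, 8 other envelope, 4 proximal S100a and 2 fused S100 positions. Above 3600 RPKM the counts were 0 in the control, 3, 22 and 1. Cut to the 3980 peaks of highest total signal, the dTA-SOX9 list had 22 in the interval.

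Most tagged peaks in the EDC lay on MLL3/4 of the same construct. Of the 10 WT-SOX9 peaks, 6 lay on MLL3/4 without DOX (whole list 27.7%) and 9 on MLL3/4 with WT-SOX9 (whole list 56.6%). For dTA-SOX9, 33 of 51 lay on MLL3/4 without DOX (64.7%, 51 to 76.4, whole list 68.3%) and 42 on MLL3/4 with dTA-SOX9 (82.4%, whole list 71.9%). In skin, 8 of the 10 WT-SOX9 peaks (80%, 49 to 94.3) were SOX9 peaks at W1, against 37.6% over the list, and 17 of the 51 dTA-SOX9 peaks (33.3%, whole list 27.4%). Read from the 53 W1 SOX9 peaks of skin, 8 (15.1%, whole list 15.4%) had a WT-SOX9 peak in culture and 16 (30.2%, 19.5 to 43.5, whole list 18.9%) a dTA-SOX9 peak. Of the 10 WT-SOX9 peaks, 5 overlapped a dTA-SOX9 peak, against 19.2%. None of the 83 MLL3/4 peaks lost with WT-SOX9 carried its MYC-tag (0%, up to 4.42, whole list 1.75%), and 6 of the 25 kept did (24%, whole list 21.3%).

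At single sites, the maximum upstream of S100a11 was 8044 RPKM for WT-SOX9, or 49 fragments, and 2872 RPKM for dTA-SOX9, and neither the list without DOX nor that of dHMG-SOX9 had a peak. It was the highest-ranked WT-SOX9 peak of the interval and lay on the site of the strongest W1 SOX9 peak in skin. The highest-ranked dTA-SOX9 peak (chr3:93536961-93537566, 10674 bp from S100a11) reached 7999 RPKM, or 39 fragments, where the skin also had SOX9 from W1 on. At the Crnn promoter the tag read 1970 RPKM for WT-SOX9, 3692 for dTA-SOX9 and 1982 for dHMG-SOX9. A peak of the protein without its DNA-binding domain stood there too, at the lowest maximum of its list.

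All the words listed above were counted in the peak windows. The GATA words were in 3.77, 0, 0 and 0% of EDC SOX9 windows from W1 to W12 (whole lists 3.18, 2.7, 2.03 and 1.49%). They were in 1.01% of D0 MLL3/4 windows (whole list 3.61%). The RUNX word was in 1.89, 2.99, 0 and 9.68% of these SOX9 windows (whole lists 2.12, 2.06, 2.77 and 3.43%). Neither the GRHL word nor the TP63 consensus was in any EDC window of skin SOX9. The 101-base windows of the W1 SOX9 peaks held a SOX word in 8 of 53 (15.1%, whole list 18.5%), and in 6 of 13 (46.2%, 23.2 to 70.9, whole list 31.6%) where D0 MLL3/4 was absent. At W2, W6 and W12 the SOX word was in 16.4, 13.6 and 12.9% of EDC windows, against 15.5, 18.8 and 24.8% over the lists. For WT-SOX9 in culture it was 5 of 10 (23.7 to 76.3, whole list 34.2%), and for dTA-SOX9 7.84% (whole list 12.6%). The AP1 word was in 5 of 7 SOX9 peaks at D0 (whole list 45.3%), 12 of 53 at W1 (22.6%, whole list 16.2%), 14 of 67 at W2 (20.9%, whole list 15.7%), 21 of 59 at W6 (35.6%, 24.6 to 48.3, whole list 23.5%) and 12 of 31 at W12 (38.7%, whole list 29.9%). KLF factors act in keratinocyte differentiation, and their word was in 7.55% of W1 windows (whole list 3.88%), 10.4% of W2 windows (whole list 4.39%), 11 of 59 W6 windows (18.6%, 10.7 to 30.4) against 4.31% over the list, 5 of 31 at W12 (16.1%, 7.09 to 32.6) against 3.8%, and 12 of 99 D0 MLL3/4 windows (12.1%, 7.07 to 20) against 5.89%.

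**Figure D4:**
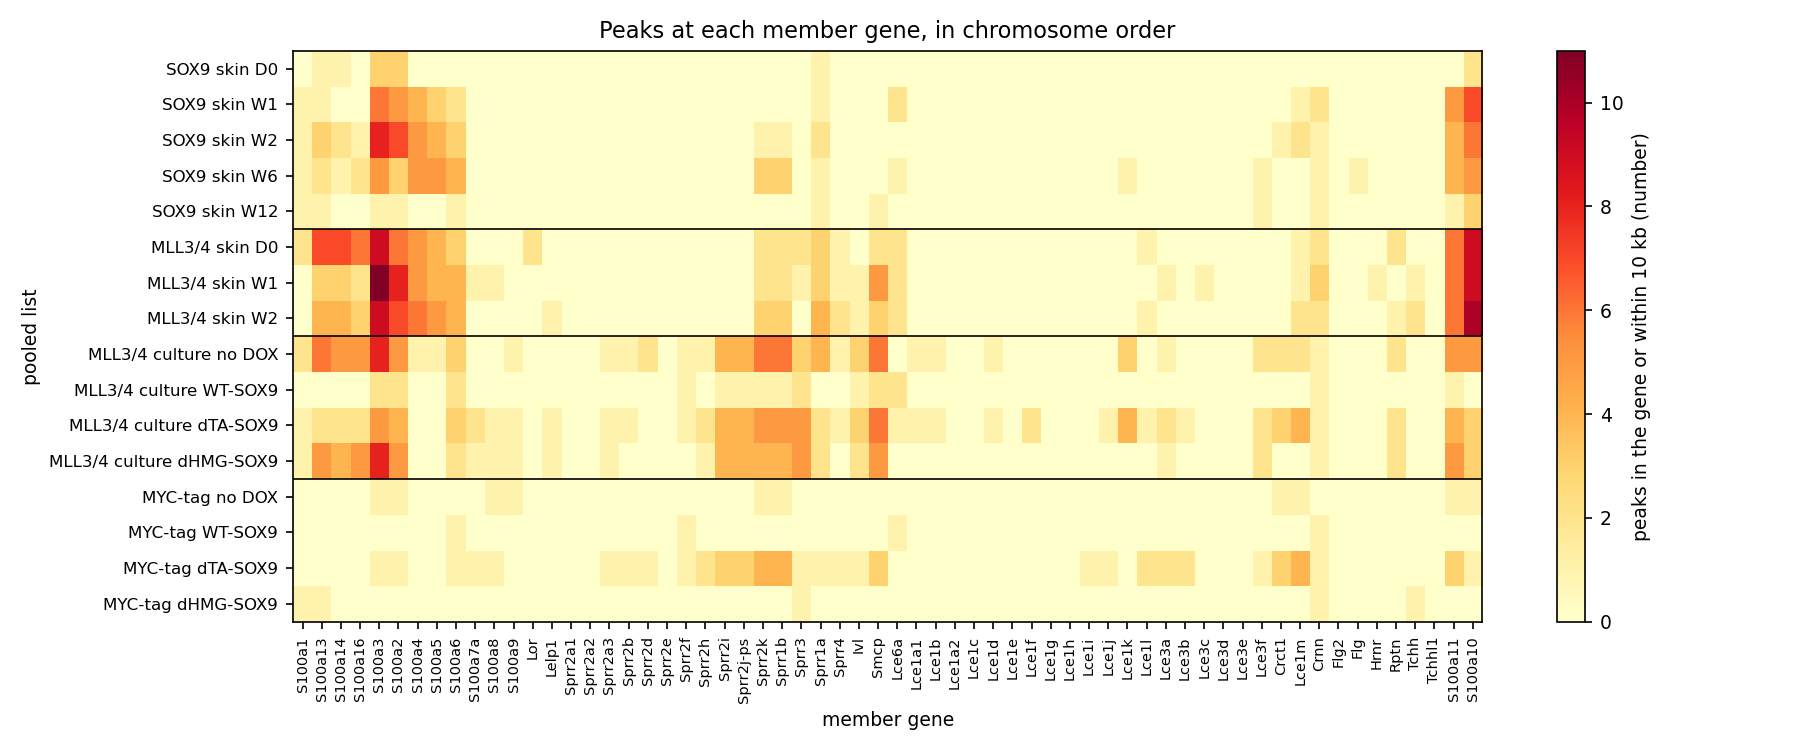
Number of peaks in each member or within 10 kb of it (colour), for the 62 members in chromosome order (columns) and the 16 pooled lists (rows). The S100a ends are dense in skin, the Sprr2 and Lce columns are filled mainly in culture without DOX or with dTA-SOX9, and 12 members have no peak in any list.

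The 12 members without a peak within reach in any of the 16 lists were Sprr2a1, Sprr2a2 and Sprr2e, the Lce genes Lce1a2, Lce1c, Lce1e, Lce1g, Lce1h, Lce3d and Lce3e, and the fused S100 genes Flg2 and Tchhl1. They were 19.4% of members (11.4 to 30.9), against 27.5% of all genes. Several of these have near-identical neighbours. The other 50 comprised all 14 S100a genes, 12 Sprr genes, 14 Lce genes, 5 fused S100 genes and the 5 others.

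Genes of the same pathway outside the complex were read from a list of 22 further envelope and barrier genes. In skin, 4 of the 22 had more MLL3/4 peaks within reach at W1 than at D0, 10 fewer and 8 the same, and at W2 the counts were 3, 11 and 8. Of the 20 that had a D0 peak, 50% had fewer at W1 and 55% at W2, against 62.3% and 63.3% of all such genes. Tgm3, a transglutaminase that cross-links the envelope, had 12, 6 and 3 peaks at D0, W1 and W2, and Krt10, a suprabasal keratin, had 3, 1 and 0. In culture WT-SOX9 left 15 of the 22 with fewer, 1 with more and 6 the same, dTA-SOX9 10, 4 and 8, and dHMG-SOX9 9, 7 and 6. Of the 17 that had a control peak, 88.2% had fewer under WT-SOX9, 58.8% under dTA-SOX9 and 52.9% under dHMG-SOX9, against 88.3, 59.4 and 55.4% of all such genes. Abca12, the lipid transporter of lamellar granules, had 14 peaks in the control, none under WT-SOX9, 17 under dTA-SOX9 and 10 under dHMG-SOX9. Among 8 regulators of epidermal differentiation, 6 had fewer peaks at W1 and 7 at W2, with Grhl3 at 13, 6 and 5 and Trp63, which encodes p63, at 19, 20 and 17. With WT-SOX9 in culture all 8 had fewer. All 8 had peaks within reach in both controls, and of all genes with a control peak 62.3% had fewer at W1, 63.3% at W2 and 88.3% with WT-SOX9.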

How the data were processed

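The members, gene lists and tests were chosen with earlier results of these data known. CNR libraries came from 41 samples, of which 32 (2 a group) stand behind the 16 pooled lists, and 9 samples (JUN, ARID1a and BRG1) were not used here. Per the study's methods and the submitters' processing notes, the authors used Skewer for trimming and Bowtie2 2.2.9 for alignment to mm10, removed duplicates with Picard, used SAMtools 1.3.1, kept short fragments, combined replicates, made tracks with deepTools 3.1.2 and called peaks with SEACR (version not given in the sources used here). Lists deposited for SOX9, for the MYC-tag and for replicate 1 alone (2 lists) give signal in RPKM scaled by the authors, whereas the deposited pooled MLL3/4 lists give unscaled signal coverage. The total signal of a peak, deposited beside its maximum, served only as a score for ranking peaks within a list. In the RPKM lists the maxima were whole multiples of 1 step (nearly all within 0.05 of a step), taken as 1 fragment.

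Peaks were read from the lists as deposited, assigned to the nearest member (distance to the gene body, GENCODE annotation of mm10), and compared by an overlap of at least 1 bp with Python 3.11.15, pandas 2.3.3, numpy 2.4.6 and scipy 1.17.1. Reach was 10 kb to each side of the gene, a promoter was 1 kb around an annotated start, and regions merged overlapping peaks. Wilson intervals are at the 95% level. Named genes were the 5 members with the most D0 MLL3/4 peaks, every member with SOX9 within reach, Lor, Ivl and Flg, and the members nearest to the highest-ranked peak (by total signal) of each class, and other named sites and members were chosen after their values were seen. Scripts were tested on simulated data. Alternatives changed the overlap, the threshold, list length, merging, reach and the no-DOX list. No p-value is given, because each group is 1 list. The nearest gene need not be the regulated one, and RNA data were not used here, so the cells were not checked against marker genes.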

Additional observations from a re-analysis of the deposited data

Results flagged for a closer look

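MLL3/4 peaks over the EDC differed in number between the 2 systems. In skin they numbered 99 at D0, 109 after 1 week of SOX9 and 100 after 2 weeks, so that the rise rests on 10 peaks at 1 time, whereas in culture it went from 108 without DOX to 29 with WT-SOX9. Each value comes from 1 pooled list, and the difference between skin and culture was not tested. The whole MLL3/4 list went from 37072 to 31539 in skin and from 33975 to 10543 in culture, and its part in the EDC difference was not tested.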

How the results depend on the processing

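No paired analysis was possible because each group was 1 pooled list and no test was made. Of 123 alternatives for 25 values, 86 stayed within the 95% interval of a share or within 1.5 times a count, and 37 moved. Orders between groups also changed. Members with MLL3/4 at D0, W1 and W2 read 37.1, 41.9 and 37.1%, and 29, 25.8 and 30.6% with the stronger 50% of each list. SOX9 peaks at W1 and W2 numbered 53 and 67, but 38 and 36 with the stronger 50% and 39 each with lists of equal size. With the stronger 50% of each list, the loss at W1 read 25.5% and SOX9 peaks at D0, W2, W6 and W12 2, 36, 37 and 16. MYC-tag peaks were then 5 in the control, 31 for dTA-SOX9 and 3 for dHMG-SOX9, and members with W1 MLL3/4 25.8%. With only the MLL3/4 lists cut in this way, the lost, gained and kept MLL3/4 peaks with SOX9 read 21.4, 67.9 and 87.8%. With lists of equal size, the losses with WT-SOX9, dTA-SOX9 and dHMG-SOX9 read 57.1, 23.3 and 23.8% and the gain with WT-SOX9 37.9%. Equal-size SOX9 and MYC-tag lists, added after seeing the data, gave 36 SOX9 peaks at W6 and 22 dTA-SOX9 peaks. Above 3600 RPKM, SOX9 peaks numbered 0, 17, 27, 26 and 4 from D0 to W12 and MYC-tag peaks 0 in the control, 3 for WT-SOX9, 22 for dTA-SOX9 and 1 for dHMG-SOX9. With peaks nearest to a member only, dHMG-SOX9 had 3. Without replicate 2 of the control, the gains with dTA-SOX9 and dHMG-SOX9 read 18 and 8.64%, and MYC-tag peaks without DOX 25, above the 10 of WT-SOX9, in a list that also lacks the minimum of 1800 RPKM. Above that value they numbered 7 (both added after seeing the data). Members with MLL3/4 at D0, W1 and W2 read 24.2, 25.8 and 25.8% within 2 kb and 72.6, 75.8 and 71% within 50 kb. The causes were not tested beyond the shorter lists or other distances that these settings impose. The depth of the MLL3/4 lists is unknown, and 8 to 11 fragments at the weakest MYC-tag peak limit statements on single sites.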
